A study of Bos taurus with 20 samples.

Results

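The genes described here are the metalloproteinases, their tissue inhibitors and the plasminogen activators of the cow endometrium, the mucosal lining of the uterus. A probe belongs to them if its gene name on the array begins with MMP, TIMP, ADAM or ADAMTS followed by a digit, or is PLAU, PLAUR or PLAT. The rule uses names only and no measured value. It found 59 of the 25427 gene names on the array, read by 133 of 43653 probes: 17 MMP genes, 4 TIMP genes, 18 ADAM genes, 17 ADAMTS genes and 3 genes of plasminogen activation. Endometrial RNA of 10 female cows (Bos taurus) was measured on 20 Agilent one-colour oligonucleotide arrays, 1 array per biopsy. Each cow gave an early biopsy, between day 42 and day 86 after parturition (mean 60.1 ± 13.3, SD, n = 10), and a late biopsy, between day 343 and day 436 (mean 388.9 ± 27.5, SD, n = 10). In both periods a forceps biopsy was taken 7 days after oestrus, in the horn ipsilateral to the corpus luteum. The labels name no breed, genotype or treatment, and the late biopsy always followed the early one, so age and interval after parturition cannot be told apart. Cows are numbered 1 to 10 in both periods.

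Matrix metalloproteinases (MMPs) are zinc enzymes that are made as inactive precursors and cut collagens, gelatins, fibronectin and other proteins outside the cell. ADAM enzymes sit in the cell membrane and shed the outer parts of growth factors, cytokines and adhesion molecules, while the secreted ADAMTS enzymes cut proteoglycans and process procollagens. TIMPs block these enzymes, and the urokinase and tissue-type plasminogen activators, PLAU and PLAT, turn plasminogen into plasmin, which digests fibrin and activates several MMP precursors. In the uterus these systems take part in the matrix turnover of involution after birth, of the oestrous cycle and of placental attachment.

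Each value comes from a probe of 60 bases, and most genes carry several probes along the transcript. Shown first are the inner probes of the genes on which the results turn, because they read a stretch nearer the 5′ end than the brightest probe of the same gene, apart from MMP14, where the only probe is shown, and MMP7, where the brightest probe is shown. Positions are those of the array files on the HGSC Btau_3.1 build, and each sequence is in sense orientation, 5′ to 3′. The ADAM19 probe is at chr7:68907059-68907118 and the MMP2 probe at chr18:23269262-23269321. The MMP14 probe spans an intron at chr10:22262121-22262560, and so do the PLAU probe at chr28:29180146-29180392 and the MMP7 probe at chr15:5176933-5179272. The ADAM17 probe is at chr11:90718901-90718958 and the PLAUR probe at chr18:51604565-51604624. A spanned intron shows that such a probe joins exons. Exon and UTR annotation of this build was not used here.
ADAM19: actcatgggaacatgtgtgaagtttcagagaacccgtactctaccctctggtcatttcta
MMP2: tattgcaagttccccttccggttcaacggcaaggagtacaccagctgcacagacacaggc
MMP14: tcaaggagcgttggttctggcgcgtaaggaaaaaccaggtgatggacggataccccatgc
PLAU: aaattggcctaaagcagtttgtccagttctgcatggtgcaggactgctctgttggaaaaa
ADAM17: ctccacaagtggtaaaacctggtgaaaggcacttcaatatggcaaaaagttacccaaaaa
MMP7: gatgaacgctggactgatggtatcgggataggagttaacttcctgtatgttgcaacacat
PLAUR: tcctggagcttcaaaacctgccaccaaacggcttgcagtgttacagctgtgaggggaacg

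The catalytic domains of MMPs and ADAMs share a zinc-binding core in which paired histidines flank a glutamate. The probe sequences were searched for codons that spell this core, in the sense strand only and in all reading frames. The 15 bases were present in 2 of the 133 probes (1.5%) and in 74 of all 43653 probes (0.17%). They are in capitals in the sequences of the MMP1 probe, which spans an intron at chr15:4762221-4763283, and of the ADAM10 probe, which spans one at chr10:52172670-52176229. The MMP1 probe over this site was well above background on 0 of 20 arrays. The ADAM10 probe was well above background on all 20, with a log2 change of -0.19 ± 0.20 (SE) from early to late.
MMP1: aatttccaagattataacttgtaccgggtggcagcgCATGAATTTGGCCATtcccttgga
ADAM10: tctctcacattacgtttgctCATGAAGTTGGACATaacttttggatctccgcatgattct

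Signal levels below are log2 of the processed signal minus the 75th percentile of the same array, so a level of 0 is the 75th percentile of that array. Levels are compared between arrays for 1 probe. Where values of different probes are subtracted below, only the change of that difference between arrays is read. A probe was tested if at least 8 of the 20 arrays flagged its signal as well above background, and a gene is represented by its tested probe of highest mean signal. This left 44 genes and 89 probes. The share of spots well above background was between 71.8% and 80.2% per array, and no probe of these genes was saturated. Precision is limited by the number of arrays. The progesterone receptor PGR, the oestrogen receptor ESR1 and HOXA10 were well above background on all 20 arrays, and 6 of the 8 endometrial identity genes listed were on the array and all 6 were tested. Of the 5 slides, 2 carried early arrays only and 2 late arrays only, so slide and period largely coincide. Slide 3 carried the early arrays of cows 9 and 10 and the late arrays of cows 1 and 2. In these bulk samples, fewer cells of a type and less RNA per cell cannot be told apart.

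The main comparison asks which of these genes differed between the periods within a cow. None of the 44 genes and none of the 89 probes passed an adjusted p of 0.05 in limma, with a smallest adjusted p of 0.051. Over all 33759 probes tested, 381 passed (1.13%), of which 262 were lower late (0.776%), and over 1 probe per gene 230 of 19454 passed (1.18%; lower late 0.704%). At an unadjusted p under 0.05, 10 of the 44 genes were lower late and 1 was higher, beside 10.1% and 12.3% of all genes. By probe, 33 of the 89 were lower and 2 higher at that level, beside 13.4% and 10.4% of all probes. The estimate was negative in 33 of the 44 genes, beside 47.1% of all genes, with a median log2 change of -0.16 beside 0.02. It was negative in 73 of the 89 probes, beside 52.6% of all probes, with a median of -0.24 beside -0.02. Probes of 1 gene read the same RNA and are not independent. The early arrays of cows 4 and 9 were most often the highest, as described below. Without these cows, 25 of the 44 genes had negative estimates and the median was -0.06. At an unadjusted p under 0.05 in that limma fit, 10 were lower and 3 higher, beside 22.1% of all probes in either direction.

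By family, the estimates were negative for 10 of the 12 MMP genes tested (median -0.16), for 11 of 14 ADAMTS genes (-0.16), for 6 of 11 ADAM genes (-0.12), for 3 of 4 TIMP genes (-0.16) and for all 3 genes of plasminogen activation (-0.83). The 10 genes of smallest p were ADAM19, MMP2, PLAU, MMP14, ADAM12, ADAM32, ADAM23, MMP19, PLAT and MMP16, and ADAM32 was the one with a positive estimate. The widest changes downward were those of MMP14 with -0.92 and PLAU with -0.85, and the highest estimate was that of ADAM32 with 0.46.

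**Figure D1:**
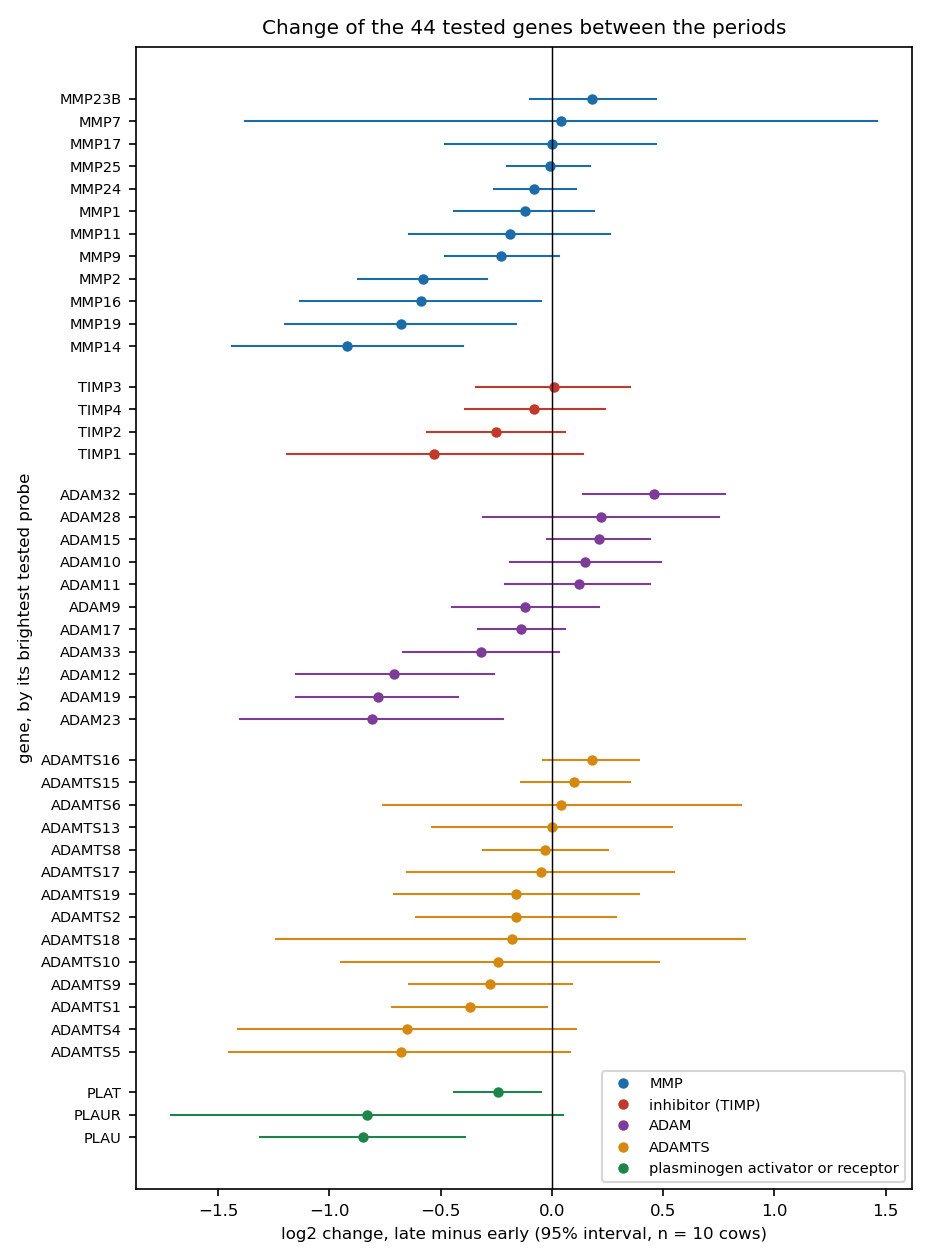
Log2 change from early to late with its 95% interval for each of the 44 tested genes, on the x axis, with genes grouped and coloured by family on the y axis (n = 10 cows, limma with cow as a block). Estimates lie left of 0 for 33 genes, with MMP14 lowest at -0.92 and ADAM32 highest at 0.46.

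Of the gelatinases, which cut denatured collagen and basement membrane collagen, MMP2 had levels of 3.98 at the lowest, 4.26 at the median and 4.55 at the highest on the early arrays, and 3.20, 3.54 and 4.29 on the late arrays. All 10 cows were lower late. The late arrays of cows 5 and 6, at 4.22 and 4.29, lay within the early range, and the other late arrays lay below the lowest early array. The log2 change was -0.58 ± 0.13 (SE; 95% interval -0.87 to -0.29; limma adjusted p = 0.0555), which is 1.49-fold higher early (95% interval 1.23 to 1.82). All 5 MMP2 probes gave negative estimates, from -1.25 to -0.58, and the smallest change was read by the brightest probe. MMP9, the gelatinase of leukocytes, had early levels of -4.81, -4.22 and -4.12 (lowest, median, highest) and late levels of -5.18, -4.59 and -4.17. Its ranges overlapped almost wholly apart from the late array of cow 9, the lowest of all, and the change was -0.23 ± 0.12 (adjusted p = 0.253), lower in 6 of 10 cows (-0.14 without cow 9).

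MMP14 is the membrane-bound enzyme that, with TIMP2, activates the MMP2 precursor. Its early levels were -3.40, -2.11 and -0.87 (lowest, median, highest) and its late levels -4.78, -2.99 and -2.02. The early array of cow 4 was the highest and the late array of cow 9 the lowest, and between these the groups overlapped. The lowest early array was that of cow 2. The only MMP14 probe starts at base 1059 of its transcript, and probe position is taken up below. The change was -0.92 ± 0.24 (95% interval -1.44 to -0.40; adjusted p = 0.0727), 1.89-fold higher early, and 9 of 10 cows were lower late. Without cows 4 and 9 it was -0.56. MMP16, another membrane-bound MMP, had early levels of -6.23, -4.91 and -3.43 and late levels of -6.43, -5.32 and -4.72, with a change of -0.59 ± 0.25 (adjusted p = 0.177). Its highest early array was again that of cow 4, and without cows 4 and 9 the change was -0.23. The 6 membrane MMP genes tested ranged from -0.92 to 0.18 with a median of -0.04, so MMP14 and MMP16 stood at the low end of their class.

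MMP19, a secreted enzyme that cuts basement membrane proteins, had early levels of 0.62, 1.16 and 2.53 and late levels of -0.10, 0.56 and 1.26. The early arrays of cows 3, 4, 6 and 9 lay above every late array, those of cows 4 and 9 farthest at 2.53 and 1.89, and cow 5 was the one that was higher late. The change was -0.68 ± 0.24 (adjusted p = 0.125), or -0.36 without cows 4 and 9, and the 3 MMP19 probes ranged from -0.99 to -0.68. MMP1, the interstitial collagenase, had early levels of -5.89, -5.30 and -4.28 and late levels of -6.02, -5.36 and -5.01, with a change of -0.12 ± 0.14 (adjusted p = 0.623), or -0.01 without cow 4. MMP11, a stromelysin of tissue remodelling, had early levels of -0.40, 0.67 and 1.0 and late levels of -1.51, 0.45 and 1.09, with a change of -0.19 ± 0.20 (adjusted p = 0.590), or -0.02 without cow 9. For MMP1 and MMP11 the late arrays covered most of the early range, and the late array of cow 9 stood apart from the other MMP11 values.

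**Figure D2:**
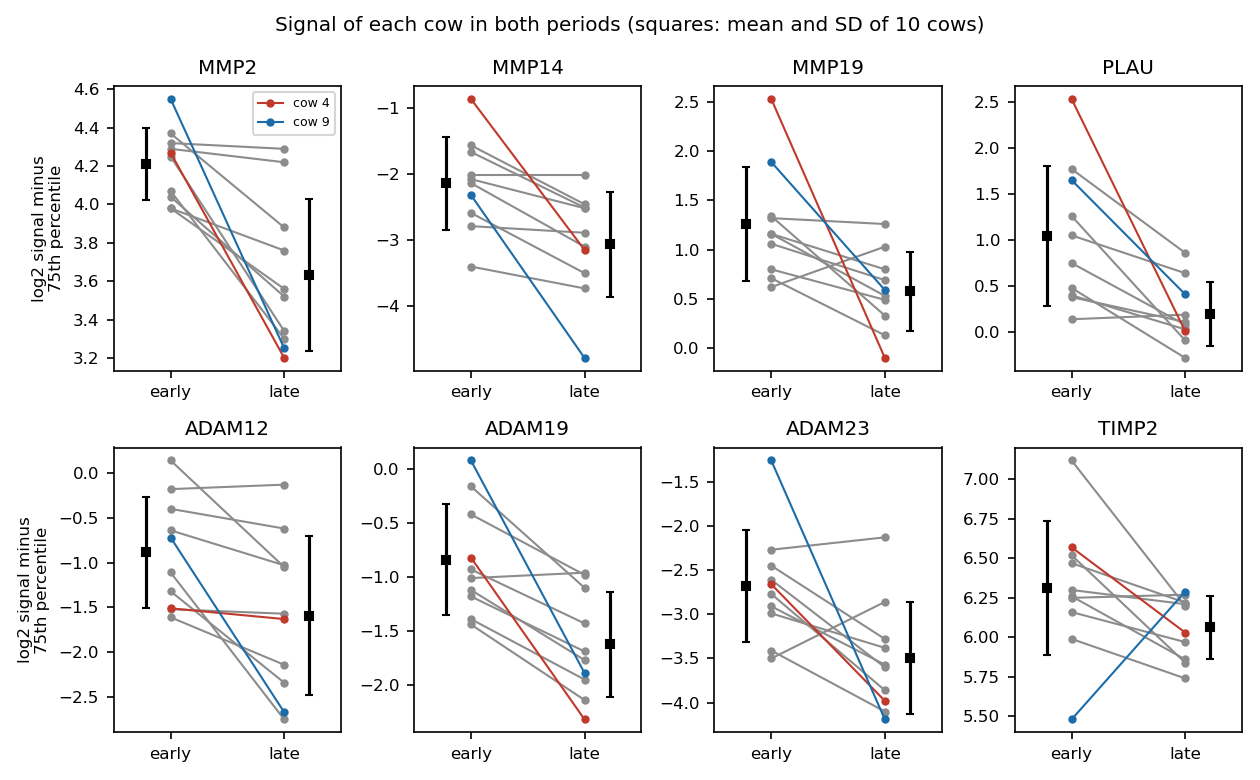
Level of 8 genes (y axis, log2 signal minus the array's 75th percentile) on the early and late arrays (x axis), with a line per cow, cows 4 and 9 in colour, and squares with bars for the mean and SD of 10 cows. MMP2 is lower late in all 10 cows, from a mean of 4.21 to 3.63, and the spread of MMP14 and MMP19 is widened by cows 4 and 9.

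Among the inhibitors, TIMP2, which binds MMP2 and MMP14, had early levels of 5.48, 6.28 and 7.12 (lowest, median, highest) and late levels of 5.74, 6.11 and 6.29. Both the highest and the lowest of its arrays were early, cow 10 and cow 9. The change was -0.25 ± 0.14 (SE, adjusted p = 0.298), lower in 8 of 10 cows. TIMP1, the inhibitor that many cytokines induce, had early levels of 0.40, 0.83 and 3.29 and late levels of -0.02, 0.50 and 1.39. The early array of cow 4 lay at 3.29, the next early array, cow 9, at 1.79, and the rest overlapped the late range. The change was -0.53 ± 0.30 (adjusted p = 0.307), and it was -0.26 without cow 4 and -0.07 without cows 4 and 9. TIMP3, which is bound to the matrix and also blocks ADAM17, had a change of 0.01 ± 0.16 (95% interval -0.34 to 0.35) with a mean of 1.23 in both periods. TIMP4 had a change of -0.08.

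Of the plasminogen activators, PLAU had early levels of 0.14, 0.90 and 2.53 and late levels of -0.28, 0.09 and 0.86. The early arrays of cows 3, 4, 6, 8 and 9 were above every late array, while those of cows 1, 2, 5, 7 and 10 lay within the late range. The change was -0.85 ± 0.21 (95% interval -1.31 to -0.39; adjusted p = 0.0667), 1.80-fold higher early (95% interval 1.31 to 2.48), and 9 of 10 cows were lower late. The inner PLAU probe shown above read -1.59 ± 0.38 (adjusted p = 0.0609), but it was well above background on 7 early arrays and 1 late array.

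PLAUR, the receptor that holds urokinase at the cell surface, had early levels of -2.83, -2.37 and 1.18 and late levels of -3.60, -2.86 and -2.40. Its early array of cow 4 stood far above the others, the next being -2.13, and the remaining ranges overlapped in part. The change was -0.83 ± 0.40 (SE, adjusted p = 0.232), lower in 9 of 10 cows, and it was -0.39 without cow 4. PLAT, the tissue-type activator, had early levels of 4.98, 5.42 and 5.70 and late levels of 4.59, 5.13 and 5.58. Cow 4 was the lowest in both periods, and the groups overlapped over most of their ranges. The change was -0.24 ± 0.09 (adjusted p = 0.140), lower in 8 of 10 cows.

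Of the ADAM genes, ADAM19, a sheddase of neuregulins, had the smallest p of all 44. Its early levels were -1.44, -0.97 and 0.08 and its late levels -2.32, -1.73 and -0.96. The early arrays of cows 9 and 3 were the highest, the ranges overlapped between -1.44 and -0.96, and 9 of 10 cows were lower late. The change was -0.78 ± 0.17 (95% interval -1.15 to -0.42; adjusted p = 0.051), 1.72-fold higher early. That probe starts at base 6115 of its transcript, and the array files place it and the next probe on the same transcript record. The probe that starts at base 813, shown above, read the opposite, 0.95 ± 0.25 (adjusted p = 0.0727), with 8 of 10 cows higher late. It was dim, above background on 6 early arrays and 7 late ones, and the late arrays fell apart into some near -7, those of cows 1, 2 and 7, and others between -5.66 and -4.31.

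ADAM12, a sheddase of growth-factor precursors and insulin-like growth factor binding proteins, had early levels of -1.61, -0.91 and 0.14 and late levels of -2.75, -1.60 and -0.13. The late array of cow 5 was nearly as high as the highest early array, that of cow 1, and the groups overlapped widely. The change was -0.71 ± 0.20 (adjusted p = 0.0863), lower in 9 of 10 cows. ADAM23, a member without protease activity that binds integrins, had early levels of -3.50, -2.71 and -1.26 and late levels of -4.19, -3.58 and -2.13. Cow 9 had both the highest early and the lowest late array. The change was -0.81 ± 0.27 (adjusted p = 0.114), or -0.48 without cows 4 and 9. The 3 ADAM23 probes above background on most arrays ranged from -1.13 to -0.81, and the remaining tested probe, at -1.28, was above background on 6 early arrays and 2 late ones.

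ADAM17, the sheddase of tumour necrosis factor and of epidermal growth factor receptor ligands, had early levels of -0.35, -0.20 and 0.53 and late levels of -0.40, -0.28 and -0.14. Apart from the early array of cow 4 its arrays lay within a narrow band, and the change was -0.14 ± 0.09 (adjusted p = 0.361), or -0.06 without cow 4. The other 4 ADAM17 probes read between -0.56 and -0.21, and the inner probe shown above read -0.49 ± 0.11 (adjusted p = 0.0596). ADAM10, the sheddase of Notch receptors and cadherins, had early levels of 2.52, 3.51 and 3.91 and late levels of 3.15, 3.51 and 3.95, with a change of 0.15 ± 0.15 (adjusted p = 0.574), between 0.06 and 0.25 when 1 cow was left out and -0.05 without cows 4 and 9. Its early and late medians were the same. ADAM32, known mainly from testis, was near background, on 4 early and 4 late arrays above it, with a change of 0.46 ± 0.15 (adjusted p = 0.104). It was higher late in 8 of 10 cows.

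Of the ADAMTS genes, ADAMTS1, a versican- and aggrecan-cutting enzyme induced by progesterone in the ovary, had early levels of 4.00, 4.28 and 4.87 and late levels of 3.29, 3.97 and 4.55. The late arrays of cows 4 and 8 were the lowest and the early arrays of cows 9 and 4 the highest, with broad overlap between. The change was -0.37 ± 0.16 (95% interval -0.72 to -0.02; adjusted p = 0.187), or -0.21 without cows 4 and 9, and its other probes read -0.82 ± 0.24 and -0.86 ± 0.23. The 14 ADAMTS genes tested ranged from -0.68 to 0.18, and ADAMTS1 was the one with an unadjusted p under 0.05.

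Where a gene had several tested probes, they mostly gave the same sign but not the same size. Of the 29 genes with at least 2 tested probes, 24 had probes of 1 sign only and 5 had both signs: ADAM10, ADAM19, MMP1, MMP23B and TIMP3. Apart from ADAM19, the estimates of these genes were within 0.20 of 0. In MMP2 the change ran from -1.25 at the probe starting at base 373 to -0.93 at the probe starting at base 2251 of the same transcript record, and in ADAMTS1 from -0.86 at base 2321 to -0.37 at base 4123. The same order was present over the whole array. In 5428 transcripts with tested probes at least 500 bases apart, the median change was -0.11 at the first probe and 0.01 at the last, and the first was lower than the last in 73.7% of them. Among the members this held for 12 of 18 transcripts, with a median difference of -0.13 beside -0.12 in all. The median within-array difference between first and last probe was lower late than early in 8 of 10 cows. It was lowest in cow 2 among the early arrays (-3.74, with a median of -3.39 over arrays). Among the late arrays it was lowest in cow 9 (-3.89, with a median of -3.48). The same arrays were the lowest of their period for MMP14, at -3.40 and -4.78. The part of this difference between first and last probes in the changes of inner probes and of MMP14 was not tested.

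**Figure D3:**
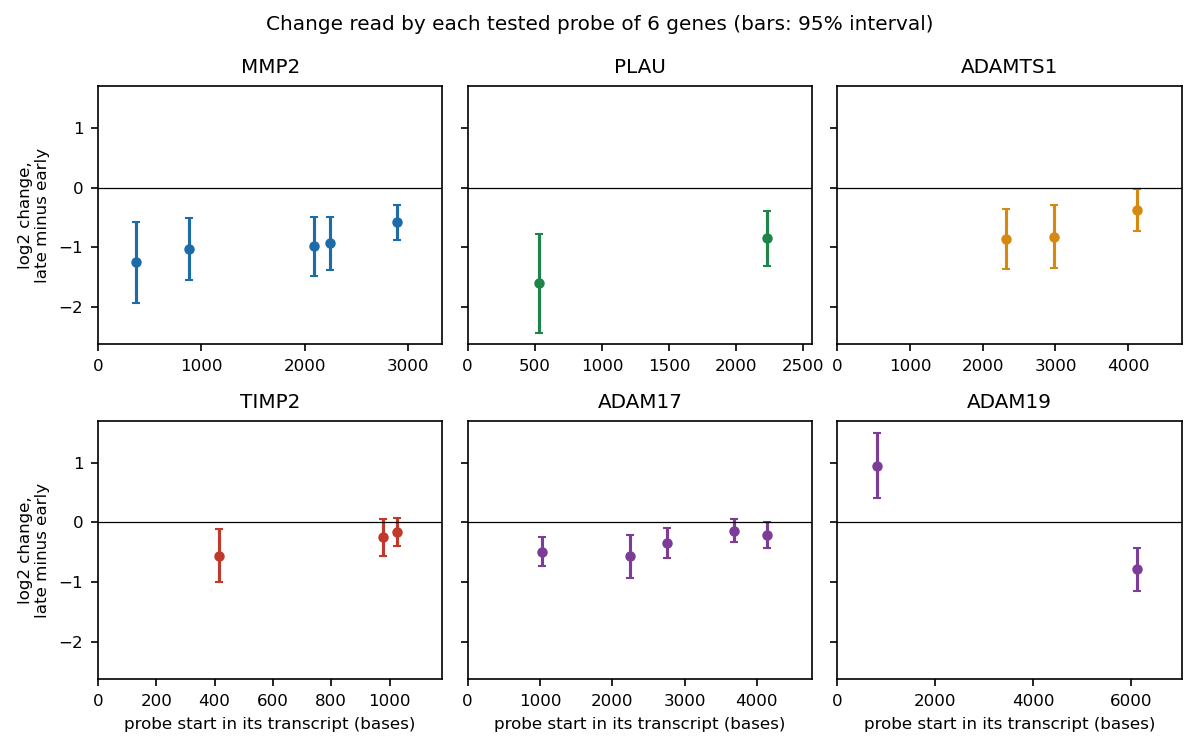
Log2 change from early to late (y axis, bars are 95% intervals, n = 10 cows) of each tested probe of 6 genes against where the probe starts in its transcript (x axis, bases; the probes of MMP2 and of ADAM17 are placed on different transcript records). All 5 probes of MMP2 lie below 0, between -1.25 and -0.58, and the probes of ADAM19 lie on both sides, at 0.95 and -0.78.

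The cows did not contribute alike. In cow 3, 35 of the 44 genes were lower late (79.5%, beside 51.0% of all genes), in cow 4 there were 32 (72.7%, beside 47.5%) and in cow 9 there were 31 (70.5%, beside 53.7%). In cow 5 there were 16 (36.4%, beside 45.1%) and in cow 6 there were 20 (45.5%, beside 43.3%). The median change over the 44 genes ran from -0.60 in cow 9 and -0.49 in cow 4 to 0.08 in cow 5 and 0.11 in cow 6, while the median over all genes was between -0.07 and 0.07 in every cow. Cow 5 was sampled latest in the early period, at day 86, and cow 6 earliest, at day 42. Cow 5 was also the one cow in which PLAU, PLAUR, MMP19, ADAM12 and ADAM19 were higher late. Without cow 5, 2 genes passed the threshold, ADAM19 and MMP2, beside 1.38% of all probes in that fit, and without any other single cow 0 did, beside 0.198% to 0.649% of all probes.

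The early array of cow 4 stood apart. It was the highest early array for 18 of the 44 genes (40.9%), beside 26.0% of all genes, and the early array of cow 9 was the highest for 10 (22.7%, beside 18.4%). The early array of cow 4 was also the lowest early array for 8 of the 44 genes (18.2%), beside 25.3% of all genes. The following genes are named because of this array and were chosen after their values were seen. MMP7, the matrilysin of glandular epithelium, lay at 3.52 there, against an early median of -4.18 and a next early value of -3.02. Its late levels were -5.03, -3.11 and -2.56 (lowest, median, highest), and its change was 0.04 ± 0.65, or 0.74 without cow 4. ADAMTS18 lay at -0.44 against an early median of -6.63, and ADAMTS4, an aggrecanase, at 3.64 against an early median of 0.60. The ADAMTS4 change was -0.65 ± 0.35 (adjusted p = 0.274), or -0.28 without cow 4. PLAUR, TIMP1 and ADAM17 also had their highest early value there, apart from the rest. On the same array, the mean levels of the epithelial, macrophage, neutrophil and endometrial identity markers were each the highest of the 10 early arrays. The macrophage markers tested all lay above their early medians there. Of the epithelial markers, EPCAM, KRT18, KRT19, CLDN4 and MUC1 lay above, and KRT8, CDH1, FOXA2 and SPP1 below. Of the identity genes, ESR1, PGR and FOXL2 lay above, and HOXA10, MSX1 and FOXA2 below. The neutrophil list, of which 7 genes were tested, stood at -2.24 there, with an early median of -3.56. The neutrophil protein S100A12 stood at 3.45 with an early median of -1.42. Only MPO of that list lay below its early median, at -8.69 against -7.11. The part of these cells in the levels of cow 4 was not tested.

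Markers of macrophages and of some other immune cells had mostly negative estimates, as the group did. The counts are read beside all genes, of which 1.18% passed (lower late 0.704%) and 47.1% had negative estimates. At an unadjusted p under 0.05 in limma, 10.1% of all genes were lower and 12.3% higher. Of the 13 macrophage and monocyte markers tested, 5 passed the threshold and all 5 were lower late, 12 had negative estimates, and the median change was -0.77. Their mean level was between -0.35 and 1.39 on the early arrays and between -1.08 and 0.68 on the late arrays. Of the 10 fibroblast markers tested, 0 passed in limma (4 at an unadjusted p under 0.05), 9 had negative estimates and the median was -0.23. Of the 9 epithelial markers 0 passed in limma (2 at an unadjusted p under 0.05, 1 in each direction), with a median of 0.22. The neutrophil list had no common direction, with 4 of 7 markers positive, 3 negative and a median of 0.12, and with 1 lower and 0 higher at the unadjusted level. Of these the Fc receptor FCGR3A, which macrophages and natural killer cells share, passed with -0.97. Of the 10 T and NK cell markers tested, 8 had negative estimates (median -0.27) and NKG7, a granule protein of cytotoxic lymphocytes, passed with -1.20 (adjusted p = 0.0255). All 5 mast cell markers had negative estimates (median -0.54; 0 passed in limma, 3 at an unadjusted p under 0.05), and so had all 4 B cell markers (median -0.37; 0 passed, 1 at an unadjusted p under 0.05). The mean level of the T and NK cell list was between -1.79 and -1.05 early and between -2.08 and -1.10 late, and that of the mast cell list between -2.72 and -1.55 early and between -2.97 and -2.05 late. The part of immune cell RNA in the members' values was not tested.

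Slides set limits on the direction of these estimates. With slide as a further fixed block, all arrays enter the fit and the 4 arrays of slide 3 link the periods. By the layout of the slides, the changes of cows 3, 4, 7 and 8 then enter the estimate with the sign opposite to that of the other cows. A fall late in these cows raises the estimate, which is less precise than in the main fit. None of the 33759 probes passed in limma (586 at an unadjusted p under 0.05). In that fit 16 of the 44 genes had negative estimates, and the median of the 44 was 0.38. The estimates of PLAU (0.28), MMP2 (0.38), MMP14 (0.43), PLAT (0.48), MMP16 (1.12), MMP19 (1.21), TIMP1 (1.25) and PLAUR (2.82) turned positive. Those of ADAM19 (-0.47), ADAM23 (-0.56) and ADAM12 (-0.36) stayed negative. Within slide 3 alone, between different cows, PLAU was at -1.0, MMP2 at -0.54, MMP14 at -0.57, MMP19 at -1.16 and ADAM19 at -1.30, while MMP16 was at -0.06 and PLAT at 0.13. Without the early array of cow 9, which leaves 1 early array on slide 3, PLAU was at -0.41, MMP2 at -0.26, MMP14 at -0.33, MMP19 at -0.75 and ADAM19 at -0.57. ADAM12 was then at -0.07, PLAT at 0.08, TIMP3 at 0.80 and MMP16 at 1.07. With slide as a random block the values were -0.84 for PLAU, -0.58 for MMP2, -0.92 for MMP14 and -0.79 for ADAM19. In that fit 0 of the 44 genes passed in limma, as did 64 of all probes. At an unadjusted p under 0.05 there were 10 of the 44 genes, beside 20.6% of all probes.

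An enzyme was then set against its inhibitor within the same array, which removes the scaling of the array, and the change of that log2 difference from early to late was taken in each cow. These are descriptions with no test. The change of MMP2 minus TIMP2 was -0.33 ± 0.82 (mean ± SD, n = 10 cows), with 7 cows lower and a lowest value of -2.11 in cow 9, and it was -0.13 without that cow. That of MMP14 minus TIMP2 was -0.67 ± 1.17, with 7 cows lower and -3.27 in cow 9, and it was -0.38 without that cow. In each of the 6 pairs the SD over cows was larger than the mean.

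For MMP9 minus TIMP1 the change was 0.30 ± 1.02, with 2.71 in cow 4, and for ADAM10 minus TIMP1 it was 0.68 ± 1.56, with 3.86 in cow 4. In both pairs the high value of cow 4 came with its high early TIMP1, and without cow 4 the changes were 0.03 and 0.32. For ADAM17 minus TIMP3 the change was -0.14 ± 0.60, and for ADAMTS1 minus TIMP3 it was -0.38 ± 0.91, with 8 of 10 cows lower. On leaving out 1 cow, ADAM17 minus TIMP3 ran from -0.30 to -0.08 and ADAMTS1 minus TIMP3 from -0.58 to -0.26. Both lowest values were those without cow 6.

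**Figure D4:**
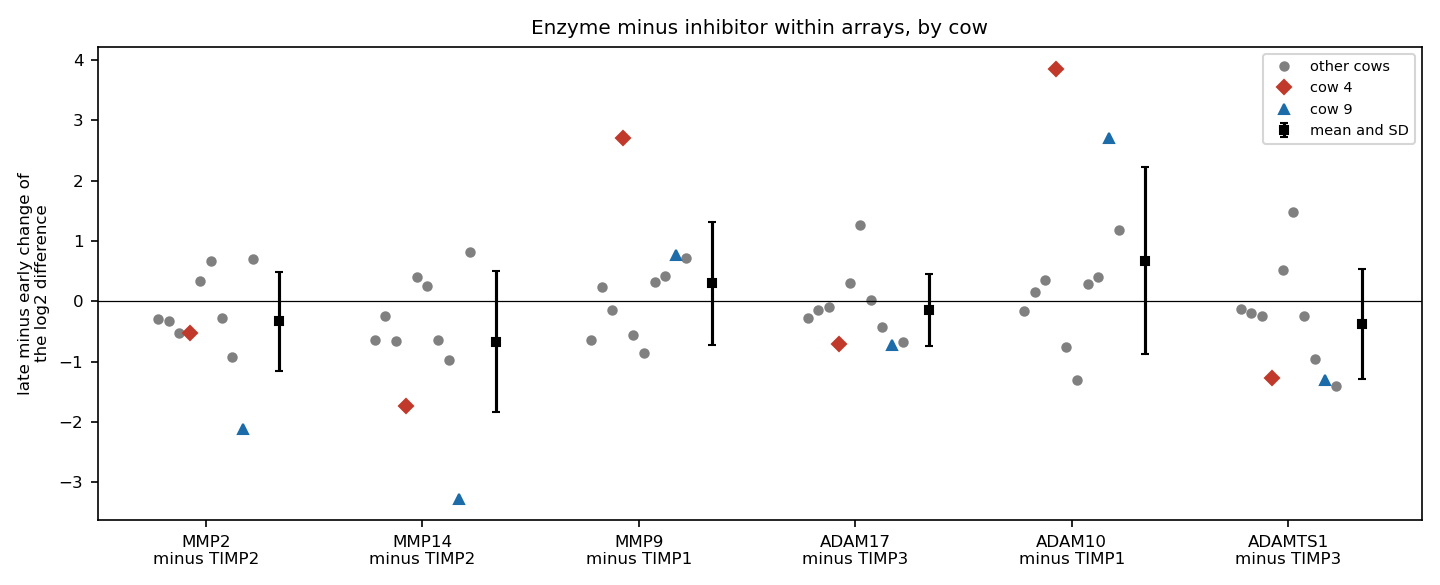
Change from early to late of the within-array log2 difference between an enzyme and its inhibitor (y axis) for 6 pairs (x axis), with a point per cow, cows 4 and 9 marked, and squares with bars for the mean and SD of 10 cows. ADAMTS1 minus TIMP3 is below 0 in 8 of 10 cows, and cow 4 reaches 3.86 for ADAM10 minus TIMP1.

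Other genes of the same pathways were taken from lists and are read beside all genes, of which 0.704% passed lower late, and 10.1% were lower and 12.3% higher at an unadjusted p under 0.05. Of 16 plasmin system genes tested, 1 was lower late and 0 higher, with a median change of 0.10, and 2 were lower and 3 higher at the unadjusted level. The lower one was KLK6, a trypsin-like serine protease, with -1.81 ± 0.38 (limma adjusted p = 0.0482), detected on 10 early arrays and 8 late ones. HGF, a growth factor related to plasminogen, had -0.77 ± 0.27 (adjusted p = 0.124), or -0.44 without cows 4 and 9. Of 22 other matrix-cleaving and matrix-crosslinking enzymes, 1 was lower and 0 higher, with a median of -0.45 and 17 negative estimates, and 12 were lower and 1 higher at the unadjusted level. The one that passed was CTSD, the lysosomal aspartic protease cathepsin D, with -0.71 ± 0.15 (adjusted p = 0.0470), lower in 10 of 10 cows, from 5.13 ± 0.40 to 4.42 ± 0.12 (SD). The collagen-crosslinking oxidase LOX had -0.64 ± 0.14 (adjusted p = 0.0553). Both calls were near the threshold. On leaving out 1 cow at a time, CTSD passed in 2 of 10 fits, and KLK6 in 1 of 10. Neither passed with slide as a random block or with no filter, and with slide as a fixed block CTSD was at -0.39 and KLK6 at -0.25. CTSD did not pass with its probes averaged, nor KLK6 with no replicate block, with normexp background correction (-0.92) or without cows 4 and 9.

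Of the 19 activators, partners and inhibitors tested, and of the 21 substrates, 0 passed in limma. At an unadjusted p under 0.05, 7 of the 19 were lower and 1 higher, and 4 of the 21 were lower and 0 higher. The first list had a median change of -0.18, with SFRP1, a Wnt antagonist that also inhibits ADAM10, at -0.85 ± 0.18 (adjusted p = 0.0513) and ADAMTSL4, a fibrillin-binding relative without protease domain, at -0.42 ± 0.11 (adjusted p = 0.0758). The substrates had a median of -0.21 and 17 of 21 negative estimates, with fibronectin, FN1, at -0.74 ± 0.19 (adjusted p = 0.0701) and the basement membrane collagen COL4A2 at -0.64 ± 0.20 (adjusted p = 0.101), or -0.36 without cows 4 and 9. These lists were drawn up with earlier results of the same arrays known, so their direction is no independent evidence.

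The days after parturition also differed between cows within a period, and a slope per 10 days was fitted in each period. Of the 44 genes, 0 passed in limma in either period, as did 0 of all 33759 probes. At an unadjusted p under 0.05 there were 5 genes in the early period, all with negative slopes, and 0 in the late period. Of all probes, 5.28% passed that level in the early period, 3.20% with negative slopes, and 1.13% in the late period, 0.412% with negative slopes. In the early period PLAU had the smallest p of negative slopes, with -0.41 ± 0.13 per 10 days (adjusted p = 0.909), and ADAM28 the smallest of positive slopes, with 0.39 ± 0.19 (adjusted p = 0.964). The median slope of the 44 genes was -0.08 there, beside -0.01 for all probes. Cows 9 and 4, whose early arrays were most often the highest, were sampled near the start of that period, at days 48 and 49. On leaving out 1 cow the PLAU slope ran from -0.49 to -0.32 and that of ADAM28 from 0.21 to 0.55. The early slopes without both cows 4 and 9 were not tested. In the late period ADAM19 had -0.07 ± 0.05 and ADAMTS16 0.04 ± 0.02.

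Finally, 15 of the 59 genes had no probe that was well above background on enough arrays to be tested. They were the stromelysin MMP3, the macrophage elastase MMP12, the collagenase MMP13, the enamel enzyme MMP20 and MMP27; ADAMTS3, ADAMTS14 and ADAMTS20; and ADAM1, ADAM2, ADAM3A, ADAM18, ADAM20, ADAM21 and ADAM30, most of them known from testis and sperm. By their brightest probe, MMP12, MMP13, MMP27, ADAM2, ADAM18 and ADAM20 were well above background on 0 of 20 arrays. The MMP3 probe was above background on 2 early arrays and 0 late arrays, and that of ADAMTS14 on 3 early arrays and 1 late array. A dim probe does not show that a gene is silent.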

How the data were processed

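Endometrial total RNA was purified with a column kit, spiked and labelled with Cy3, per the labels' protocols. The submitters' processing notes name Agilent Feature Extraction 10.5.1.1. The deposited scanner files hold intensity values per spot, of which the processed signal (background-subtracted) was used. The authors' deposited value table holds log2 values; its scale and centring were found by setting it against the scanner files, as the percentile-scaled log2 signals centred on each probe's median (correlation per array at least 0.99997), with column medians between -0.153 and 0.0509, and served as an alternative. The number of unused per-sample columns was 0.

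Processed signals were put on a log2 scale and the 75th percentile of the noncontrol spots was subtracted per array, without control and outlier-flagged spots, with spots of a probe averaged. Gene names of the members are those of the array design. A RefSeq table (ARS-UCD2.0, names only) gave 2 of the 133 probes another symbol, MMP23 for MMP23B. The paired comparison used limma 3.58.1 under R 4.3.3 (moderated tests from lmFit and eBayes, two-sided, adjusted after Benjamini-Hochberg over all 33759 probes, threshold 0.05) with cow as a fixed block, and the fit was tested on simulated data. Pairing comes from the design text, the titles and the animal numbers. Late source names give different cow numbers, and the labels do not settle this. As a check, after subtraction of period means, both arrays of a cow correlated between -0.107 and 0.767 (median 0.41), above 0.1 in 8 of 10 cows, against a median of -0.0325 between cows. Nothing says that biopsies were sampled more than once, so p-values of the paired comparison measure the spread of the change between these cows. That spread also holds differences between slides and arrays.

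Named genes are those past the threshold, the 10 of smallest p, 14 chosen by role, and the day trends of smallest p. From the pathway lists, named genes are those past the threshold and the 2 of smallest p. The members and lists were chosen with earlier results of these data known. Alternatives were the replicate block left out or random, normexp background correction (offset 50), quantile or median scaling, the deposited table, other filters and probe choices, another variance model, slide as a block, slide 3 alone, and leaving out cows. Slide 3 without the early array of cow 9, the genes named for cow 4, the pathway genes' alternatives and the probe position comparison were added after seeing the data. Scan date could not be a block, since all arrays shared 1 scan day. Of the planned enzyme and inhibitor pairs, 2 are not reported here.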

Additional observations from a re-analysis of the deposited data

Results flagged for a closer look

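Among the 88 combinations of gene and period, 8 had an array further from the others than the gap rule for groups of 10 allows. Normally distributed, independent values give about 1 in 20. The rule was not run over all genes, so no share of all genes stands beside this count. Of the 8, 6 were the early array of cow 4, which was the highest early array for 26.0% of all genes and the lowest for 25.3%. That array was at 3.52 for MMP7 (early median -4.18), at -0.44 for ADAMTS18 (early median -6.63), at 1.18 for PLAUR (early median -2.37), at 3.64 for ADAMTS4 (early median 0.60), at 3.29 for TIMP1 (early median 0.83) and at 0.53 for ADAM17 (early median -0.20). The late array of cow 9 was at -1.51 for MMP11, with a late median of 0.45 and a next value of -0.16. For ADAMTS6, which the text does not otherwise name, the late array of cow 6 was at -6.23, with a late median of -3.62.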

How the results depend on the processing

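The count of 0 of 44 genes past the threshold was near it. It became 3 with the replicate block as a random effect (ADAM19, MMP2 and PLAU, with 1536 of all probes, 4.55%), 2 with normexp background correction, with quantile normalization and with a trended and robust variance (ADAM19 and MMP2 each time; 1.14%, 2.04% and 1.21% of all probes), and 1, ADAM19, with the median of detected probes as scale, with the filter on all 20 arrays, with 1 probe per gene and without cows 4 and 9 (1.44%, 1.11%, 1.31% and 0.924% of all features). It was 0 with no replicate block (195 of all probes), with the deposited table, with no filter, with a gene's probes averaged, with slide as a fixed or random block and within slide 3. Leaving out 1 cow gave between 0 and 2 genes, the 2 without cow 5. With slide as a fixed block the sign turned for PLAU (0.28), COL4A2 (0.30), MMP1 (0.31), MMP2 (0.38), MMP14 (0.43), PLAT (0.48), ADAM17 (0.49), HGF (0.84), ADAMTS1 (0.86), MMP16 (1.12), MMP19 (1.21), TIMP1 (1.25), ADAMTS4 (2.77), PLAUR (2.82), ADAMTS18 (3.07), ADAMTSL4 (0.02) and ADAM10 (-0.29). Within slide 3 it turned for ADAM32 (-0.87), MMP7 (-0.14), MMP11 (0.12), PLAT (0.13) and ADAMTS18 (0.49). With probes averaged, ADAM19 was at 0.09, ADAM10 at -0.08, MMP1 at 0.01 and TIMP3 at -0.01, since their probes differ in sign. TIMP3 was at -0.01 with quantile normalization and MMP7 at -0.12 with normexp. Without cows 4 and 9 ADAM10 was at -0.05, MMP1 at 0.09, TIMP3 at -0.06 and ADAMTS18 at 0.46. Leaving out 1 cow moved ADAMTS18 between -0.31 and 0.33, the latter without cow 4, TIMP3 between -0.07 and 0.15 (-0.02 without cow 1 or 8, -0.07 without cow 9, -0.05 without cow 10) and MMP7 between -0.21 and 0.74 (-0.02 without cow 2 or 8, 0.00 without cow 3, -0.21 without cow 6, -0.08 without cow 9, -0.12 without cow 10). With slide as a fixed block, the changes of cows 3, 4, 7 and 8 enter with the opposite sign, so a fall late in these cows raises the estimate. The part of slide differences in the turns was not tested. No other scaling moved the median of all probes by over 0.1. Scan date was not run, since 1 day holds all arrays. Signal near background limits ADAM32, ADAMTS18 and the dim probes of PLAU, ADAM19 and ADAM23.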
